A study of Mus musculus with 8 samples.

Results

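Transcripts that sperm depend on for thiol chemistry and for their mitochondrial sheath were followed through the first wave of spermatogenesis. The 10 genes were Gpx4, Smcp, Txnrd1, Txnrd2, Txnrd3, Txndc2, Txndc8, Nme8, Vdac2 and Vdac3, chosen by gene symbol from the 23983 genes of the expression table. All 10 were found. RNA was taken from a piece of whole testis of C57BL/6J mice with no transgene named in the labels, at 12, 16 and 24 days after birth (d12, d16 and d24) and from adults of unstated age. Each of the 4 ages was 1 RNA-seq library, so no value has a replicate and no test between ages was possible. The 4 matching H3K27Ac ChIP-seq samples were not analysed here.

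In the midpiece of a sperm the mitochondria are wound around the flagellum as a sheath held together by a capsule rich in selenium and disulfide bonds. Thioredoxins are small proteins that reduce disulfides with a pair of cysteines, and thioredoxin reductases recharge them with electrons from NADPH. Glutathione peroxidases reduce peroxides, and in late spermatids one of them, GPX4, becomes a structural part of the capsule. In juvenile mice the germ cells advance as a first wave, so that a testis of greater age holds later germ cell stages.

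Levels are given in FPKM, fragments per kilobase of transcript scaled to the mapped fragments of a library. Intervals of levels are exact 95% Poisson intervals on the number of fragments behind a value. Those of ratios also come from the fragments, and those of shares are approximate. All intervals cover counting error only, not the spread between animals. A row of 4 values follows the order d12, d16, d24 and adult. A gene at 0 is set against a limit of 3 fragments, which is a convention. Its exact interval reaches somewhat above that limit. The libraries held between 8910400 fragments on genes, at d12, and 23689443, at d24, and 1 fragment on a 1 kb transcript was worth between 0.0455 FPKM, at d24, and 0.112 FPKM, in the adult.

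The 4 selenoproteins among the 10 genes, Gpx4 and the thioredoxin reductases, carry a TGA codon that is read as selenocysteine, the residue at the centre of their chemistry. The coding bases around it are shown with that TGA in capitals, because its place differs between the peroxidase and the reductases. All sequences are from RefSeq, build GRCm38.p6, in the direction of the gene.
Gpx4: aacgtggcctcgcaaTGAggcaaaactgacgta
Txnrd1: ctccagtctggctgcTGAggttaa
Txnrd2: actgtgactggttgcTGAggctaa
Txnrd3: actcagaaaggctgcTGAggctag
These lie at chr10:80054722-80054754 for Gpx4, chr10:82896022-82896045 for Txnrd1, chr16:18477757-18477780 for Txnrd2 and chr6:89674774-89674797 for Txnrd3, all on the plus strand and each within 1 coding exon. In Gpx4 the codon was number 73 of 197. In the reductases it was the last codon but one, number 498 of 499 in Txnrd1, 526 of 527 in Txnrd2 and 651 of 652 in Txnrd3.

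The thioredoxin-like genes share the Cys-Gly-Pro-Cys site whose cysteines carry out the exchange. The stretches below hold it in capitals, with the somatic thioredoxin Txn1 for comparison.
Txn1: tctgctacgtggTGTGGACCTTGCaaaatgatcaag
Txndc2: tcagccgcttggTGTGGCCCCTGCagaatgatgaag
Txndc8: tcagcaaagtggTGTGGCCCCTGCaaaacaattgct
Nme8: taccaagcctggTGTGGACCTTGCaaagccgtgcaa
They are at chr4:57951809-57951844 for Txn1, chr17:65637729-65637764 for Txndc2, chr4:58007087-58007122 for Txndc8 and chr13:19696647-19696682 for Nme8, all on the minus strand and each within 1 coding exon. The site was found once in frame in each gene. It began at codon 32 of 105 in Txn1 and at codon 32 of 127 in Txndc8. It stood late in Txndc2, at codon 477 of 550, and early in Nme8, at codon 39 of 586.

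The 10 genes fell into 3 patterns. Smcp, Txndc2, Txndc8 and Nme8 were below 2 FPKM at d12 and d16 and between 44.7 and 159.7 FPKM at d24. Gpx4, Txnrd3 and Vdac2 were already between 27.5 and 102.0 FPKM at d12 and were between 391.8 and 540.8 FPKM in the adult. Txnrd1, Txnrd2 and Vdac3 were present at d12 and were less than 2-fold higher in the adult, Txnrd2 being lower. This sorting was made from the values and is a description. The 4 late genes held 0.360%, 0.332%, 19.7% and 45.6% of the summed FPKM of the 10 genes from d12 to the adult.

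**Figure D1:**
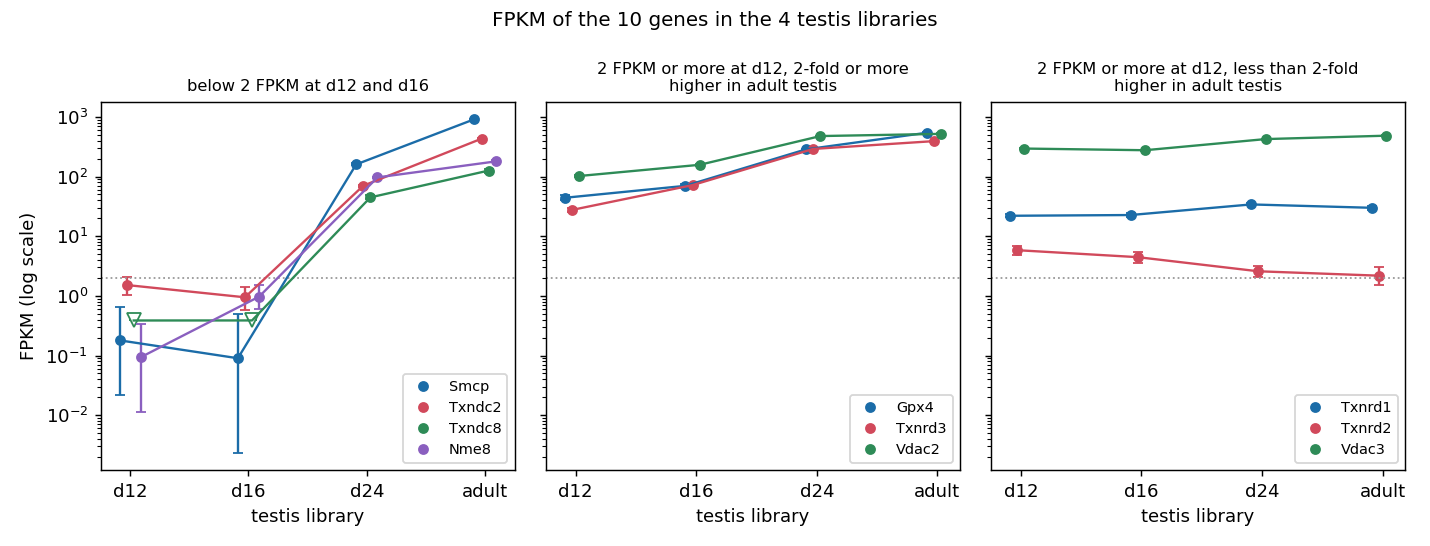
FPKM (log axis) of the 10 genes in the d12, d16, d24 and adult libraries, 1 point per library with its exact 95% Poisson interval. Open triangles mark the limit of 3 fragments where Txndc8 was at 0, and the dotted line is 2 FPKM. The 4 late genes in the left panel lie below that line at d12 and d16 and at 44.7 FPKM or more at d24.

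Smcp encodes the cysteine- and proline-rich sperm mitochondria-associated protein of the capsule. It was at 0.180 FPKM at d12, from 2 fragments, at 0.0900 FPKM at d16, from 1 fragment, at 159.7 FPKM at d24 and at 914.8 FPKM in the adult. The first 2 libraries were thus at the edge of detection, and the last 2 were far above them. The d24 value was 1775-fold that of d16, with an interval of 318.3 to 70118, which is wide because the d16 value is 1 fragment. From d24 to the adult Smcp was 5.73-fold higher (interval 5.49 to 5.98). In the adult it was the highest of the 10 genes and number 65 from the top of the 13901 genes whose mean over the libraries reached 1 FPKM.

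Gpx4, the selenium-containing peroxidase, was at 44.0, 69.8, 285.2 and 540.8 FPKM from d12 to the adult. Each value was above the one before. The steps were 1.59-fold (interval 1.41 to 1.80), 4.08-fold (3.77 to 4.43) and 1.90-fold (1.82 to 1.98). Under equal FPKM sums, with each library brought to the same total, the d16 to d24 step was 2.66-fold. Within each library, Smcp was at 0.00408, 0.00129, 0.560 and 1.69 of the Gpx4 level from d12 to the adult. In the adult the separate intervals of Gpx4 and Vdac2 overlapped. Overlap does not settle their order, and no interval of their ratio was taken. The order of Smcp and Gpx4 turned between d24 and the adult. A processed copy of Gpx4, Gpx4-ps2, matches 777 bases of its transcript at 99.7%, and 88.1% of the transcript lies in copies of at least 98% identity. The mapping kept 1 place per fragment, so the Gpx4 values are uncertain to the extent that fragments went to that copy.

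Among the 8 glutathione peroxidases Gpx1 to Gpx8, Gpx4 held 48.0% of the summed FPKM at d12 (interval 44.9 to 51.1), 70.8% at d16, 91.9% at d24 and 94.2% in the adult (93.4 to 94.9). Such shares within a library do not depend on how libraries were scaled to each other. Gpx1, the broadly expressed cytosolic member, lay between 16.4 and 20.1 FPKM in all 4 libraries. Gpx8, a membrane-bound member, was at 20.04 FPKM at d12 and 3.20 FPKM in the adult.

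Vdac2 and Vdac3 encode channels of the outer mitochondrial membrane. Vdac2 was at 102.0, 157.3, 476.7 and 518.8 FPKM from d12 to the adult. Its largest step was 3.03-fold as deposited (interval 2.92 to 3.15), from d16 to d24, and 1.97-fold under equal FPKM sums, below 2-fold. Vdac3 was at 294.3, 276.0, 424.3 and 483.8 FPKM in the same order. It was the highest of the 10 genes at d12 and d16, and as deposited it was 1.64-fold higher in the adult than at d12 (1.58 to 1.71). Under a scaling to equal FPKM sums Vdac3 was lower in the adult than at d12, by a log2 change of -0.50, and by -0.05 under the upper quartile, so its direction depends on the scaling.

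The order of the channel genes did not depend on scaling. Vdac2 was at 0.347 of the Vdac3 level at d12 (interval 0.329 to 0.365), 0.570 at d16, 1.12 at d24 and 1.07 in the adult (1.04 to 1.11). Vdac1, the channel that prevails in many somatic tissues, was at 32.9, 25.4, 15.6 and 10.99 FPKM from d12 to the adult. Vdac3 over Vdac1 was 8.95 at d12 and 44.0 in the adult (38.3 to 50.9). Vdac2 and Vdac3 together held 92.3% of the VDAC sum at d12 and 98.9% in the adult. The coding sequences of Vdac2 and Vdac3 were 72.7% identical over aligned bases. A copy of Vdac3 on chromosome 13, Vdac3-ps1, matches 1313 bases at 99.5%, while the copy of Vdac2, Gm7832, matches 1465 bases at 95.6%, so Vdac3 is the less certain.

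The thioredoxin reductases parted. Txnrd3, the testis-rich reductase with an added glutaredoxin domain, was at 27.5, 71.8, 289.8 and 391.8 FPKM from d12 to the adult. It was one of only 2 of the 10 genes more than 2-fold higher at d16 than at d12, by 2.61-fold (interval 2.41 to 2.82), and d16 to d24 added 4.04-fold (3.86 to 4.22), or 2.63-fold under equal FPKM sums. From d24 to the adult it was 1.35-fold higher as deposited, a step whose direction turned under equal FPKM sums, to a log2 change of -0.04.

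Txnrd1, the cytosolic reductase, was at 22.0, 22.6, 34.1 and 29.9 FPKM from d12 to the adult. Its direction from d12 to d16, d16 to d24 and d12 to the adult turned under at least 1 other scaling. Txnrd2, the mitochondrial reductase, was at 5.83, 4.45, 2.58 and 2.18 FPKM from d12 to the adult, each below the one before. It was 2.67-fold lower in the adult than at d12 (interval 1.85 to 4.00), the only one of the 10 genes lower by 2-fold, and lower under all 4 scalings. The intervals of its levels overlapped between d12 and d16 and between d24 and the adult. The interval of the ratio was 0.582 to 0.987 from d12 to d16, below 1. From d24 to the adult it was 0.562 to 1.24 and included 1.

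Txnrd3 held 49.8% of the reductase sum at d12 (interval 47.5 to 52.0), 72.6% at d16, 88.8% at d24 and 92.4% in the adult (91.9 to 93.0). Txnrd3 over Txnrd1 was 1.25, 3.17, 8.51 and 13.1 in the same order. Txnrd3 and Gpx4 lay at like levels at d16, with overlapping intervals, and again at d24. Their ratio was 0.626, 1.03, 1.02 and 0.725 from d12 to the adult.

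The 3 thioredoxin-like genes of sperm were late. Txndc2, a thioredoxin of the developing sperm tail, was at 1.52, 0.946, 70.2 and 431.0 FPKM from d12 to the adult. It was 74.2-fold higher at d24 than at d16 (interval 49.5 to 122.6) and 6.14-fold higher in the adult than at d24 (5.87 to 6.42). Txndc8, a thioredoxin tied to the spermatid Golgi and acrosome, was at 0 FPKM at d12 and at d16, where the limits of 3 fragments are 0.386 and 0.387 FPKM. It was at 44.7 FPKM at d24, at least 115.5-fold higher when set against the d16 limit of 3 fragments. The exact interval for 0 fragments reaches further, to 0.476 FPKM at d16, and the interval of the ratio began at 93.7-fold. Txndc8 was at 125.9 FPKM in the adult, 2.82-fold above d24 (2.52 to 3.14).

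Nme8, which joins thioredoxin and nucleoside diphosphate kinase domains in a protein of cilia and flagella, was at 0.0938 FPKM at d12, from 2 fragments, 0.970 at d16, from 21 fragments, 96.7 at d24 and 179.3 in the adult. It was the one late gene with a higher d16 than d12 value, by 10.3-fold (interval 2.57 to 92.5). Its adult value was 1.85-fold that of d24, less than those of Txndc2 and Txndc8. Nme8 over Txndc2 was therefore 1.38 at d24 and 0.416 in the adult, and Txndc8 over Txndc2 was 0.637 and 0.292, without overlap of the intervals in either case. Txndc2 over Smcp was 0.440 at d24 and 0.471 in the adult, with overlapping intervals of 0.418 to 0.463 and 0.456 to 0.487.

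The somatic thioredoxins gave the background. Txn1, the cytosolic form, was at 35.3, 31.7, 14.2 and 15.2 FPKM, and Txn2, the mitochondrial form, at 6.91, 9.24, 21.4 and 19.4 FPKM. Txn1 over Txn2 was 5.11 at d12 and 0.780 in the adult. Of the summed FPKM of the 5 thioredoxins, Txndc2, Txndc8 and Nme8 held 3.68% at d12 (interval 2.40 to 5.59), 4.47% at d16, 85.6% at d24 and 95.5% in the adult (95.1 to 95.9).

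**Figure D2:**
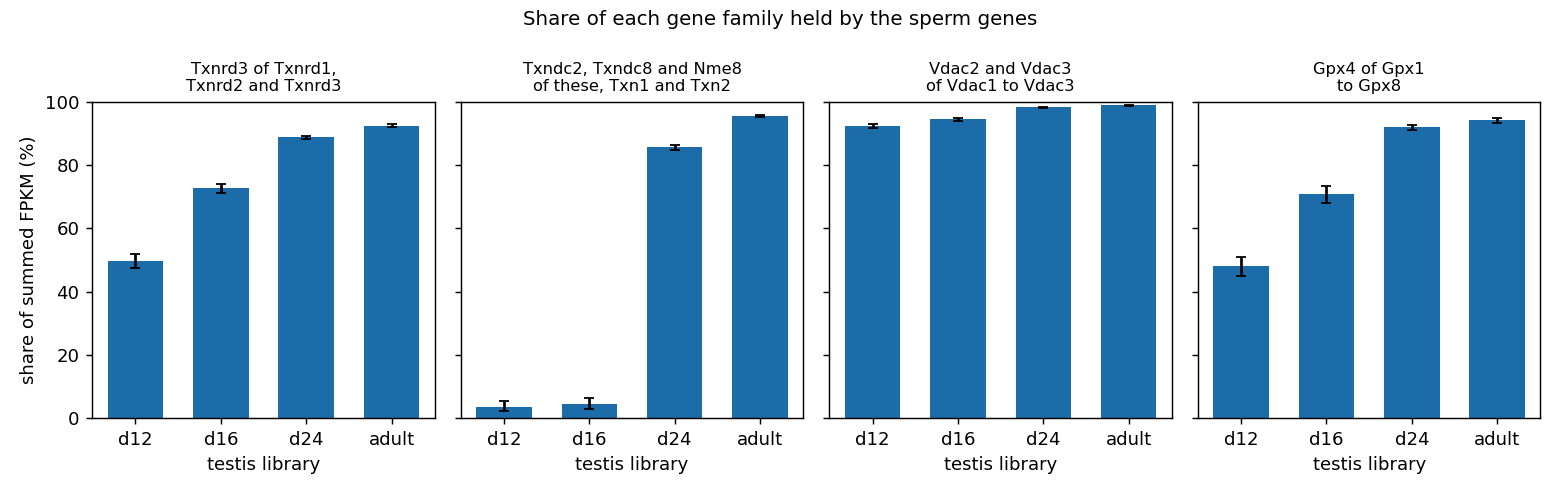
Share of the summed FPKM of 4 gene families (percent, axis from 0) in each testis library. Error bars are approximate 95% intervals, from the FPKM share applied to the summed fragments of each family. All 4 shares are higher in the adult than at d12, and the thioredoxin share goes from 3.68% to 95.5%.

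Counted at 2-fold on log2(FPKM + 0.1), 2 of the 10 genes were higher from d12 to d16 and 0 lower. Over all 13901 genes whose mean over the libraries reached 1 FPKM, 12.6% were higher and 3.67% lower. From d16 to d24, 7 were higher and 0 lower, against 27.5% and 8.45% of all genes, and the median log2 change was 2.02 for the 10 genes and 0.13 for all. From d24 to the adult, 3 were higher (Smcp, Txndc2 and Txndc8) and 0 lower, against 11.4% and 2.2%. From d12 to the adult, 7 were higher and 1 lower, against 35.7% and 23.1%, with medians of 3.72 and 0.20. The comparisons share libraries and are not independent. The general split depends on scaling: from d16 to d24, equal FPKM sums gave 19.3% higher and 30.2% lower and the upper quartile 21.1% and 23.4%, and from d12 to the adult these gave 23.2% and 49.8%, and 26.8% and 40.2%. Equal sums lowered the median log2 change from d12 to the adult from 0.20 to -0.995.

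**Figure D3:**
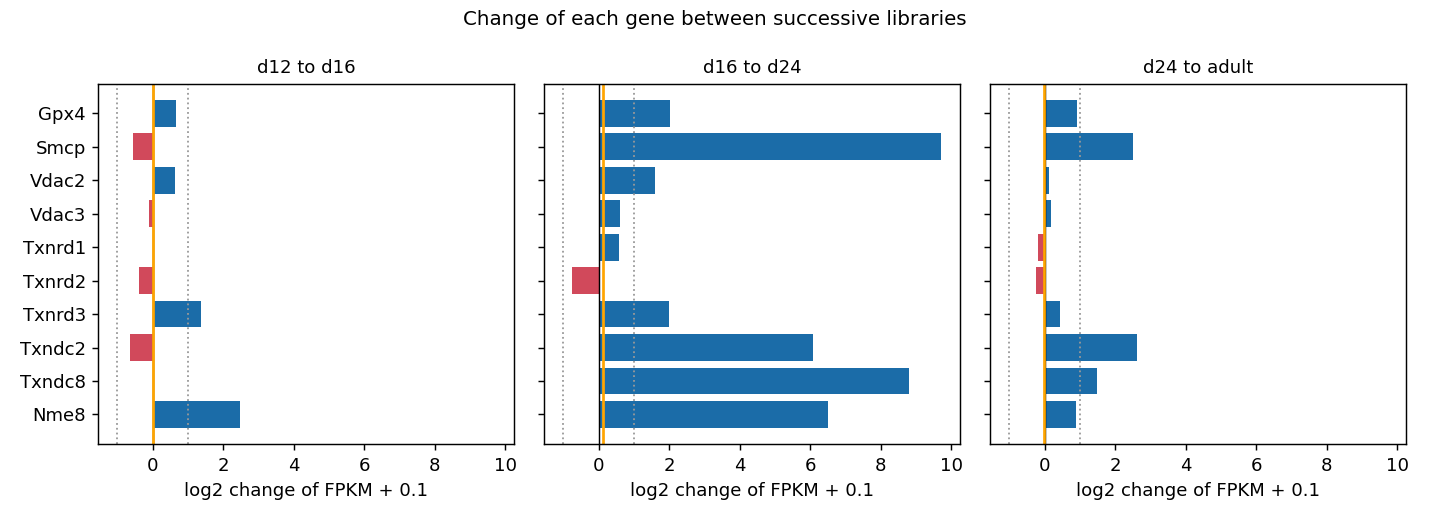
Change of log2(FPKM + 0.1) of each gene between successive libraries. Dotted lines mark 2-fold and the orange line the median of 13901 genes. Bars of Smcp, Txndc2, Txndc8 and Nme8 that begin at d12 or d16 start from 0 to 34 fragments and depend on the added 0.1. The d16 to d24 panel holds the 7 genes past 2-fold.

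A gene was called first at d16 if below 2 FPKM at d12 and at or above 2 at d16, and first at d24 if below 2 in both earlier libraries. These are the thresholds in the methods of the study, used without its further limit on the level. No member was first at d16, against 3.55% of all 23983 genes, and 4 were first at d24, against 6.3%. Unlike the other shares, these were taken without the filter at a mean of 1 FPKM, which all 10 members pass. Genes too low to be called are thus counted in them, and the shares over the 13901 genes are not given. The other 6 were at 2 FPKM or more at d12. Txndc2 was just under the threshold at d12, at 1.52 FPKM with an interval of 1.04 to 2.09. Within each library, the median percentile of the 10 genes among 13901 was 63.3, 58.2, 94.5 and 98.2 from d12 to the adult.

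Markers of the cell types of a testis changed over the same libraries, and in whole tissue fewer cells of a type and less RNA per cell cannot be told apart. The summed FPKM of 6 elongating spermatid markers, such as the protamine Prm2, was 13.2, 4.45, 2363 and 26392 from d12 to the adult. The sum of 6 round spermatid markers was 2.70, 13.8, 371.9 and 833.2, with Sun5 at 0 at d12 and Acrv1, Sun5 and Catsper3 at 0 at d16. The sum of 6 pachytene markers was 61.9, 983.7, 4222 and 4902. Like Smcp and Txndc2, the elongating markers were higher at d12 than at d16. For Smcp, with 2 and 1 fragments, and Txndc2, with 34 and 21, the interval of the ratio included 1. The part of the markers in these early values was not tested.

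From d24 to the adult the 6 elongating spermatid markers were between 5.67 and 17.5-fold higher, the 6 round spermatid markers between 1.28 and 6.98-fold and the 6 pachytene markers between 0.816 and 2.47-fold. Smcp at 5.73 and Txndc2 at 6.14 lay within the elongating and the round spermatid ranges. Txndc8 at 2.82 lay within the round spermatid range and above the pachytene range. Nme8 at 1.85, Gpx4 at 1.90 and Txnrd3 at 1.35 lay within the round spermatid and the pachytene ranges. The 6 Leydig cell markers spanned 1.36 to 5.36-fold, which also holds Txndc8, Nme8 and Gpx4. The 6 spermatogonial markers spanned 0.538 to 2.05-fold, which also holds Nme8, Gpx4 and Txnrd3. The 5 blood cell markers spanned 0.00445 to 1.62-fold, which holds Txnrd3. These ranges thus do not tell the cell types apart for those genes. The 6 Sertoli cell markers summed to 224.7 FPKM at d12 and 100.5 in the adult. The 6 spermatogonial markers summed to 289.0 and 62.1, although Gfra1 was higher, at 1.20 and 2.41 FPKM. The Leydig cell markers summed to 131.6 and 580.7, although Star was lower, at 18.8 and 15.1 FPKM. Early meiotic markers summed to 953.4 and 1178 FPKM, although 2 of the 6, Dmc1 and Prdm9, were more than 2-fold lower. Macrophage markers summed to 32.7 and 28.9, although Mrc1 was higher, at 15.2 and 16.2 FPKM. Blood cell markers summed to 263.5 and 65.3, through Hba-a1 and Hbb-bs. Alas2 was higher, at 3.07 and 5.55 FPKM, as was Slc4a1, at 0.140 and 0.296 FPKM. The part of these changes in the levels of the 10 genes was not tested.

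**Figure D4:**
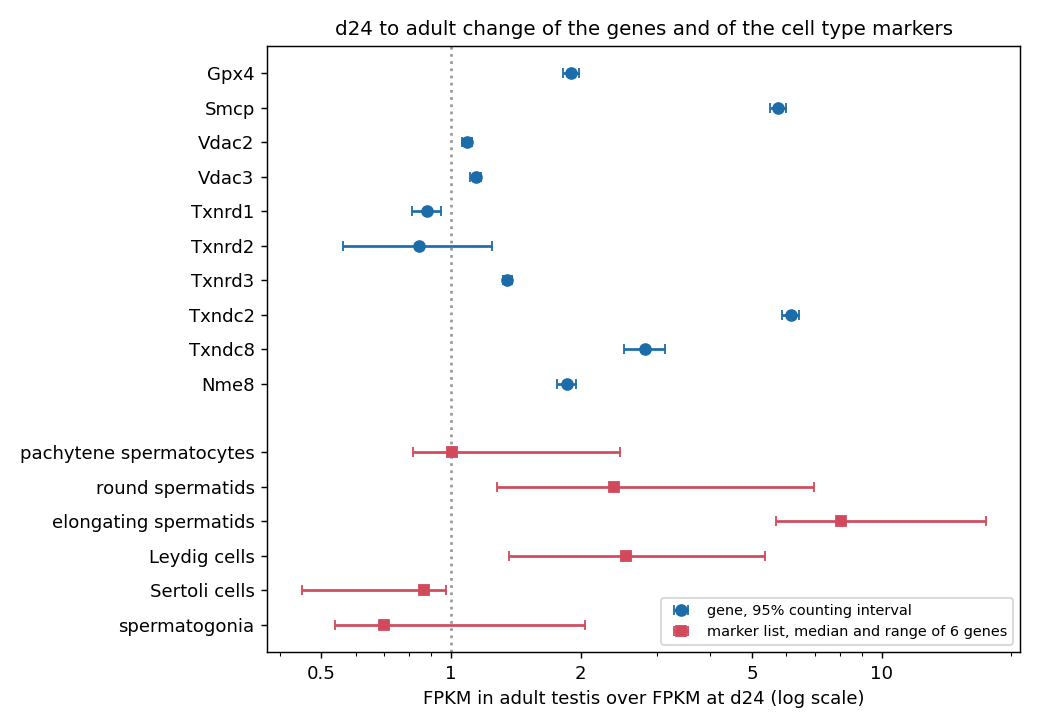
FPKM in the adult over FPKM at d24 (log axis). Circles are the 10 genes with 95% counting intervals, squares the median of 6 markers of a cell type with lines from the lowest to the highest marker. Smcp and Txndc2, at 5.73 and 6.14, are the only genes within the range of the elongating spermatid markers.

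Other genes of the same pathways were described from lists. Of 16 thioredoxins and peroxiredoxins, 3 were at least 2-fold higher and 6 lower in the adult than at d12, where 35.7% and 23.1% of all genes were. The higher ones were Srxn1, which repairs peroxiredoxins, from 0.880 to 10.7 FPKM, nucleoredoxin (Nxn), from 3.51 to 32.0, and Txn2, which was 2.81-fold higher as deposited, 1.65-fold under the upper quartile and 1.21-fold under equal FPKM sums. Under equal sums 2 were higher and 10 lower, where 23.2% and 49.8% of all genes were. Those lower as deposited included Txn1. Of 15 genes of glutathione and glutaredoxin, 3 were higher and 4 lower, and under equal sums 2 and 9, with Gpx2 and Gpx5 at 0 in all 4 libraries. Glrx3, a glutaredoxin of iron handling, went from 59.0 to 288.6 FPKM, Glrx2 from 2.91 to 13.2, and glutathione reductase (Gsr) from 34.5 to 9.61.

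Of 10 genes that make selenoproteins, supply selenium or encode other selenoproteins, 4 were at least 2-fold higher and 0 lower from d12 to the adult, where 35.7% and 23.1% of all genes were. Under equal FPKM sums 1 was higher and 5 were lower, where 23.2% and 49.8% of all genes were. Sephs2, which makes the selenium donor and is itself a selenoprotein, was at 12.4, 73.1, 191.4 and 163.2 FPKM from d12 to the adult. Selenow and Selenok, which are selenoproteins and not part of the machinery that makes them, went from 13.7 to 57.3 and from 72.8 to 188.7 FPKM. Of 12 further mitochondrial genes of sperm, 10 were higher and 1, Vdac1, was lower. Spata19 and Tbc1d21, both needed for the sheath, were at 0 FPKM at d12 and d16 and at 62.8 and 16.2 FPKM at d24. Armc12, which helps mitochondria to line up, was at 0.0724, 0.145, 35.0 and 98.7 FPKM. These 3 genes were, like Smcp, below 2 FPKM at d12 and d16 and above it at d24. The median log2 change from d12 to the adult was -0.54 for the thioredoxins and peroxiredoxins, -0.11 for the glutathione and glutaredoxin genes, 0.46 for the selenoprotein genes and 5.98 for the mitochondrial genes of sperm, beside 0.20 for all genes.

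The genes nearest to each member over the 4 libraries were found as the smallest distance between log2 profiles centred on their means. Those nearest to Smcp were 1700019M22Rik and Tmco5, to Txndc2 1700128A07Rik and Fbxo39, to Txndc8 Gm20857 and Iqcf5, and to Nme8 1700049L16Rik and Tomm20l. Adad1 and Coq4 were nearest to Txnrd3, and Naif1 and Rhbdd1 to Gpx4. Only 1 gene lay within a distance of 0.5 of Nme8 and 4 within that of Smcp, against 2275 for Txnrd2. With 4 libraries many genes share a profile, and none of the 20 nearest genes was chosen again by Pearson correlation.

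RefSeq promoters, 250 bases before to 50 after a start, were listed for 8 of the 10 genes and not for Vdac2 or Vdac3. Reading those promoters showed an 8-base word, TGATGTCA, which differs by 1 base from the palindrome TGACGTCA bound by CREB and CREM proteins. It was chosen after the sequences were seen. The 30 bases around each match are shown with the word, or its reverse complement TGACATCA, in capitals, since 3 of the 4 genes that hold it are late ones.
Smcp: ggagagtattaTGATGTCAtaaaagagctg
Txndc8: gacccatccaaTGATGTCAtagaaaagtta
Txndc2: ggaagcctcatTGACATCAcaatgtcatca
Txnrd1: ccatcctcctcTGATGTCAtccagagcgga
These lie at chr3:92589031-92589060 on the minus strand for Smcp, chr4:58009132-58009161 on the minus strand for Txndc8, chr17:65642315-65642344 on the minus strand for Txndc2 and chr10:82860194-82860223 on the plus strand for Txnrd1. The word began at base 25 after the start in Smcp and at bases -24, -129 and -136 in Txndc8, Txndc2 and Txnrd1. In Txndc2 it stood in 1 of 2 listed promoters and in Txnrd1 in 1 of 3, and the promoter of Nme8, the remaining late gene, did not hold it. Searched on both strands, TGATGTCA was in 3.62% of all 32851 promoters, and TGACGTCA, in none of the 8 genes, in 1.79%. With the 10 genes left out, 129 of 1079 genes first at 2 FPKM at d24 held TGATGTCA in a promoter (11.96%), against 409 of 15706 other genes (2.60%). For TGACGTCA the shares were 2.41% and 2.64%. A match of letters is a description and does not show that a protein binds.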

How the data were processed

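Strand-specific libraries of total RNA were sequenced as paired ends. Per the authors' methods, reads were mapped to GRCm38/mm10 with TopHat2 2.1.0 over Bowtie 1.1.2, keeping 1 place per fragment, and the authors made the deposited FPKM values with Cuffdiff of Cufflinks 2.2.1 on RefSeq genes, with bias and multi-read correction and no effective length correction. How Cuffdiff scaled the libraries is not given in the sources used here. The summed FPKM went from 283580 at d12 to 659202 in the adult. A median ratio scaling, which divides a library by its median ratio to the mean of each gene, had divisors between 0.981 and 1.017. The deposited values thus lie close to such a scaling. The deposited table has 1 FPKM column per age, without counts or replicates.

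The value of 1 fragment per kilobase was read from low values of 14604 genes with 1 transcript. Between 91.6% and 92.3% of values of up to 20 fragments came out whole within 0.05, and on simulated data the step recovered it within 1% in 4 of 4 libraries. Intervals are exact Poisson intervals for levels and Clopper-Pearson intervals for ratios, at 95%. For shares, the FPKM share was applied to the summed fragments of the family, so those Clopper-Pearson intervals are approximate. For genes with transcripts of several lengths, the shortest was used where lengths differed by more than 1.1-fold, and for Smcp the length was read from its values. Counts past 2-fold, medians and log2 changes are on log2(FPKM + 0.1), which understates the changes of low genes, over the genes averaging 1 FPKM or more. Fold changes printed for single genes are plain FPKM ratios without the 0.1. With 1 library per age no p-value is given. Alternatives were the pseudocount, the filter, the fold, the threshold and 3 other scalings between libraries (equal FPKM sums, upper quartile and median ratio). Genes named were the 10 members, their somatic relatives and, per list, the 3 with the largest change that reached 10 FPKM. Markers at 0, and those going against the sum of their list from d12 to the adult, were named after their values were seen. The members and lists were chosen with earlier results of these data known. Python 3.11.15, pandas 2.3.3, scipy 1.17.1 and blastn 2.17.0 were used, with at least 90% identity over 50 bases for other copies.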

Additional observations from a re-analysis of the deposited data

How the results depend on the processing

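No paired analysis was possible because each age was 1 library. Over 96 results and 276 alternatives, 169 were judged the same and 107 moved. The limit was the counting interval for shares and log2 changes, 1.5-fold for counts and 1 percentile point for ranks. Nearest genes were judged the same only if both were chosen again. Of 20 changes past 2-fold, all kept their direction under all 80 alternatives run on them, and 2 of those 80 values fell below 2-fold. Keeping the direction was fixed in advance in nearly all of these alternatives. A larger pseudocount cannot turn a direction, and the median ratio scaling hardly differs from the deposited one. The other scalings moved values between successive libraries by less than 2-fold. Only equal FPKM sums, from d12 to the adult, could have turned a change just past 2-fold. Smaller changes did turn with scaling, as given above for Vdac3, Txnrd1 and Txnrd3, and from d24 to the adult also for Vdac2. With d16 as the start, chosen after seeing the data, 0 genes were lower in the adult in place of 1. That gene, Txnrd2, was at 4.45 FPKM at d16 and 2.18 in the adult. It fell just under the 2-fold cut only because of the added 0.1. The share over all genes is not given for d16 to the adult.

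Counts of the 10 genes moved as follows. The share over all genes is not given at 1.5-fold, at 4-fold or with a pseudocount of 1 FPKM, so no share stands beside those counts. From d12 to d16, 1 was higher with a pseudocount of 1 FPKM, 4 at 1.5-fold and 1 at 4-fold, in place of 2, and 1 was lower at 1.5-fold. From d16 to d24, 1 (Txnrd2) was lower under equal FPKM sums, under the upper quartile and at 1.5-fold, in place of 0, and 6 were higher under equal FPKM sums (without Vdac2), 9 at 1.5-fold and 6 at 4-fold, in place of 7. Of all genes, 19.3% were higher and 30.2% lower in that step under equal FPKM sums, and 21.1% and 23.4% under the upper quartile. From d24 to the adult, 5 were higher at 1.5-fold in place of 3. From d12 to the adult, 0 were lower at 4-fold in place of 1. Under equal FPKM sums, the genes lower from d12 to the adult were 10 in place of 6 among thioredoxins and peroxiredoxins, 9 in place of 4 among glutathione and glutaredoxin genes, 5 in place of 0 among selenoprotein genes, of which 1 in place of 4 was higher, and 2 in place of 1 among other sheath genes. Of all genes, 23.2% were higher and 49.8% lower under that scaling.

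Shares depend on the genes summed. Txnrd3 against Txnrd1 alone held 55.6% at d12, 76.0% at d16 and 89.5% at d24. Without Nme8 the sperm thioredoxins held 2.26% at d16, 76.3% at d24 and 94.2% in the adult. Vdac3 alone held 68.6%, 60.2%, 46.3% and 47.7% of the VDAC sum from d12 to the adult, and Gpx4 against Gpx1 alone 68.7%, 81.0%, 94.5% and 96.7%. Ranked among all genes of the table, the median percentile of the 10 genes was 78.7 at d12, 75.8 at d16 and 96.8 at d24. The depth left Smcp and Nme8 at d12 with 2 fragments each.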
